A study of Mus musculus with 6 samples.

Results

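A set of 10 genes that hold back the cell cycle or are read as marks of cellular senescence were followed in CD4+ T cells of young and aged mice. They were chosen by symbol, as the genes of the array design named Cdkn1a, Cdkn1b, Cdkn2a, Cdkn2c, Cdkn2d, Trp53, Gadd45a, Gadd45b, Lmnb1 and Glb1. No measured value served as a filter, but earlier results of these data were known when the genes were chosen. Of these 10 genes, 9 had a named probe, 1 each, among the 19321 genes with a named probe. Trp53, which encodes p53, had none and is not analysed here. The cells came from the spleen (SP) and from the small intestinal epithelium, whose resident T cells are the intraepithelial lymphocytes (IEL), of male C57BL/6 mice. Per the labels, the young IEL and young SP groups came from mice 5 weeks old, and the old IEL and old SP groups from mice 89 weeks old, although the study's array methods put the old mice a little younger than that. All 4 were sorted as CD3+CD4+ cells with a purity above 98%, and no treatment is given for any group. The old IEL fractions cd27cd28 and others, also from mice 89 weeks old, carry the same sort description, but their gates are not stated and the labels mark them as unused in the study. Each of the 6 groups was measured on 1 array with RNA from 4 to 6 mice, and whether the mice were pooled is not stated. No test, SD or replicate check was therefore possible, and every difference below is one between arrays.

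Cells leave the cell cycle when cyclin-dependent kinases (CDKs) are held inactive. Inhibitors of the CIP and KIP family, p21 and p27, bind cyclin and CDK complexes, whereas those of the INK4 family bind CDK4 and CDK6 and keep them from their D-type cyclins. p53 induces p21 after DNA damage, the Arf product of the Cdkn2a locus stabilises p53, and the GADD45 proteins act in stress and growth arrest. Lasting arrest of this kind is known as senescence, and loss of lamin B1 from the nuclear lamina and high lysosomal beta-galactosidase activity are widely used to recognise it. In T cells the same inhibitors also accompany the quiescence of naive cells and the slowing of division after activation, so none of these genes marks senescence by itself.

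Promoters are shown for Cdkn1a and Gadd45b, whose age differences had opposite signs at the 2 sites, and for Cdkn2a, which makes different products from its starts. RefSeq (build GRCm38.p6) gave promoters for 9 of the 10 genes, 12 in all, and held no entry matched to Lmnb1. The 250 bases before each start were searched on both strands. For p53 the half-site decamer of its response element was used, and for E2F the letters TTTCGCGC, TTTGGCGC, TTTCCCGC or TTTGCCGC. The GC box, which Sp1 proteins bind, was GGGCGG. The CCAAT box was searched by the letters of its name. The TATA box, which sets the start in some promoters, was TATAAA. The E-box, a site of basic helix-loop-helix proteins such as Myc, was CACGTG. The CRE was TGACGTCA, and the AP-1 site, which Fos and Jun proteins bind, was TGACTCA or its reverse complement. Each sequence is given 5′ to 3′ in the direction of transcription and ends at the base before the start. Capitals mark p53 half-sites and GC boxes in Cdkn1a, E2F-type sites and GC boxes in Cdkn2a, and CCAAT and TATA boxes in Gadd45b. The 2 starts of Cdkn1a lay 2790 bases apart, and those of Cdkn2a, which belong to the Arf (distal) and p16 transcripts, 12427 bases apart.
Cdkn1a, distal start, chr17:29090729-29090978, plus strand: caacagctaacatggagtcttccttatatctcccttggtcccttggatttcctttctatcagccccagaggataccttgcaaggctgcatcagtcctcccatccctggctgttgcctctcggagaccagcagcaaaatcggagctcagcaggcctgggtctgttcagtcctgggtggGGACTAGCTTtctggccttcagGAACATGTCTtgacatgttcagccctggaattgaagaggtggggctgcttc
Cdkn1a, proximal start, chr17:29093519-29093768, plus strand: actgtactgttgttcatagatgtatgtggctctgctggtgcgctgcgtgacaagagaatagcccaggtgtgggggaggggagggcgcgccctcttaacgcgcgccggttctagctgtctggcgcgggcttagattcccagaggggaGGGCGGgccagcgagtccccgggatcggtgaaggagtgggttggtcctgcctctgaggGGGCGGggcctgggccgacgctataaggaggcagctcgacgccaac
Cdkn2a, distal start, chr4:89294620-89294869, minus strand: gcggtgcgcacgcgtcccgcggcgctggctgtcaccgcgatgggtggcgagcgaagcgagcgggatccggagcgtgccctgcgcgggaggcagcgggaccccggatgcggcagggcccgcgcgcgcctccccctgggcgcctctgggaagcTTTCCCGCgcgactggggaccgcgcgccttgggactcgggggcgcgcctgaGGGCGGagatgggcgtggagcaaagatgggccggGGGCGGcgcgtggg
Gadd45b, chr10:80929841-80930090, plus strand: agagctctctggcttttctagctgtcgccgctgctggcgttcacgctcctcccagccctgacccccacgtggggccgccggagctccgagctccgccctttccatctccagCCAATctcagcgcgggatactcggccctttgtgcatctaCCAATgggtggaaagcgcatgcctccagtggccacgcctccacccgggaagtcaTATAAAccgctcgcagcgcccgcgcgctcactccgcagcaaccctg

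The distal Cdkn1a promoter held 2 p53 half-site decamers, beginning 73 and 51 bases before the start, and the proximal one held none but had GC boxes at 104 and 46 bases. The E2F-type match of Cdkn2a began 99 bases before the Arf start. The TATA box of Gadd45b began 46 bases before its start. Among all 32851 promoters of the same length, 7.13% held a p53 half-site, 1.86% an E2F-type site, 32.7% a GC box, 33.8% a CCAAT box, 12.4% a TATA box, 6.02% an E-box, 4.46% an AP-1 site and 1.55% a CRE site. Of the 12 promoters of these genes, 4 held a p53 half-site (Cdkn1a, Cdkn2d, Gadd45a and Trp53), 7 a GC box, 5 a CCAAT box, 2 a TATA box, 2 an E-box, 1 an AP-1 site, 1 an E2F-type site and 0 a CRE site. No motif overlapped another in the sequences printed. A match describes the letters only.

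Signals are given on a linear scale on which the median detected probe of an array is 25, and differences on the log2 scale. Each array detected 72.2% to 85.1% of its 23473 probes, and 4360 to 5261 probes had a signal over 100. A gene is called higher or lower where the fold was over 2 and the signal on the brighter array over 100. Repeated control spots had a log2 SD of 0.127 on average over the arrays, so that 2 SD of a difference between 2 arrays came to 0.36. This covers spot error alone, and differences within it are described as within spot error. The SD was largest on young IEL, at 0.212 and 0.184 for its controls, so differences from that array carry more spot error than 0.36. Whether the limit holds for spots near the blank was not checked. All 9 T cell markers were detected on all 6 arrays, with summed signals from 7010 to 11844. The myeloid markers summed to 853 on the others array against 63.1 to 126 elsewhere, mostly through Lyz2 (711), and the epithelial markers to 993 against 300 to 485, with Krt8 at 375. Cd8b1, the marker with a probe for CD8 alpha beta T cells, which the CD4 gate should leave out, was 465 in young SP, 321 in old SP, 643 in young IEL, 231 in old IEL, 610 in cd27cd28 and 554 in others. It was called lower in old than in young IEL (-1.48) and so moved with the IEL age differences below, and its part in them was not tested. The local background around each spot tracked the signal of the spot with a Pearson r of 0.959 to 0.983 on the log2 scale over all probes, which are not independent. Its share of a spot's signal above the blank is therefore given beside the genes it bears on, with the value after a correction for it (normexp).

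The CIP and KIP genes differed sharply from each other. Cdkn1a, which encodes p21, had a signal of 5.53 in young SP, 21.2 in old SP, 225 in young IEL, 135 in old IEL, 73.3 in cd27cd28 and 102 in others. All 4 IEL arrays were above both SP arrays, and the young and the old array differed in opposite directions at the 2 sites. Every step in the order of the 6 arrays was beyond spot error as judged on control spots, although young SP was near the blank, 4.54 SDs of the blank spots above it. The log2 difference of old from young was 1.94 in SP, where neither array reached 100, and -0.74 in IEL. The log2 difference of IEL from SP was 5.35 in young and 2.67 in old mice. These values lean on how background is treated. The local background made up 75.3% to 86.7% of the signal above the blank on 5 arrays and lay below the blank on young SP. After its correction the age differences were -0.05 in SP and 0.04 in IEL, and the site differences 0.35 in young and 0.43 in old mice. In bulk RNA, fewer cells of a kind and less RNA per cell cannot be told apart, here and for every gene that follows.

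Cdkn1b, which encodes p27, the inhibitor typical of resting T cells, was dim and varied little. Its signal was 18.6 in young SP, 18.5 in old SP, 20.4 in young IEL, 15.5 in old IEL, 18.9 in cd27cd28 and 15.7 in others. No neighbours in that order differed by more than spot error. The largest of its differences, old from young IEL, was -0.39 on the log2 scale.

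**Figure D1:**
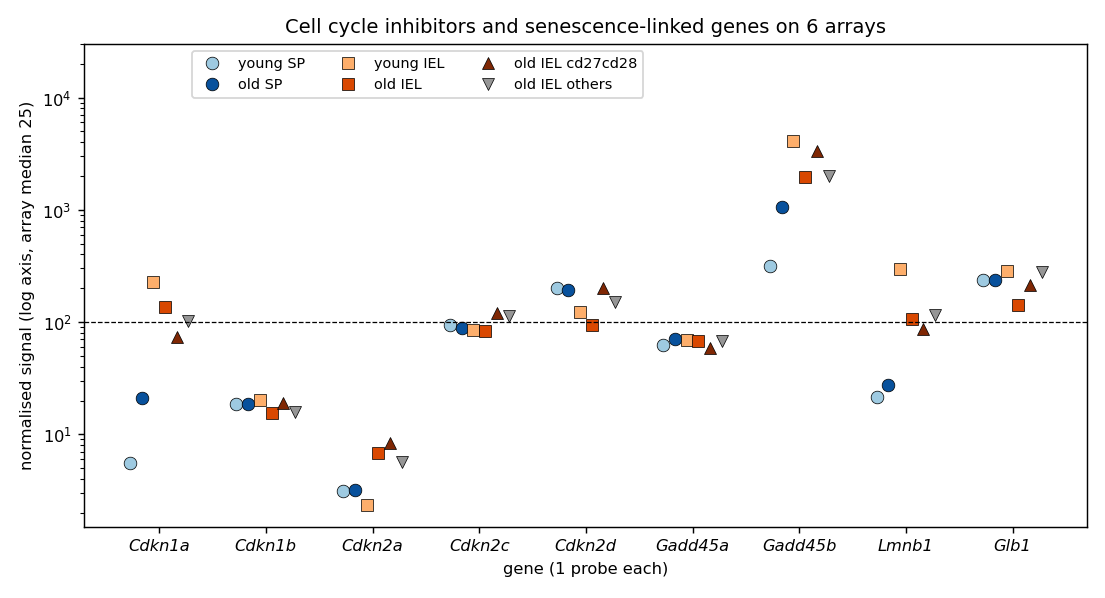
Normalised signal (log axis, array median 25) of the 9 genes with a probe on each of the 6 arrays, 1 point per array; the dashed line marks a signal of 100. Cdkn1a, Gadd45b and Lmnb1 separate the 4 IEL arrays from the 2 SP arrays, whereas those of Cdkn1b, Cdkn2c and Gadd45a overlap, with Cdkn1b between 15.5 and 20.4 and Cdkn2c between 83.5 and 119.

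Of the INK4 genes, Cdkn2a was dim on every array and only its old IEL values stood up. Cdkn2a encodes p16 and, from its distal start, Arf, and its probe is listed under 1 of the locus's transcripts; whether it reads both products is not given in the sources used here. The signal was 3.13 in young SP, 3.18 in old SP, 2.36 in young IEL, 6.80 in old IEL, 8.34 in cd27cd28 and 5.62 in others. The 3 old IEL arrays lay above the other 3, with no overlap. How many of all genes separated in this way was not counted. The typical gene was also above young IEL in cd27cd28 (median 0.54) and others (0.44), though not in old IEL (-0.09). On the log2 scale old IEL was 1.53 above young IEL, and old SP 0.02 above young SP. All 6 values nevertheless lie near the detection limit, from 2.04 to 8.04 SDs of the blank spots above their mean, where 2 SDs was the limit. The difference in IEL became 0.31 when 16 was added to each signal and 0.05 after local background correction.

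The other INK4 genes were brighter. Cdkn2c, which encodes p18, had a signal of 93.7 in young SP, 87.8 in old SP, 85.5 in young IEL, 83.5 in old IEL, 119 in cd27cd28 and 113 in others, and neighbours by level were within spot error. From old IEL to cd27cd28, its lowest and highest arrays, the log2 difference was 0.51 and beyond spot error. The log2 difference of old from young was -0.09 in SP and -0.03 in IEL, but 0.10 and -0.67 after local background correction. The local background made up 7.52% of the signal above the blank on young IEL and 63.2% on old IEL. Cdkn2d, which encodes p19INK4d, had a signal of 199 in young SP, 194 in old SP, 123 in young IEL, 94.0 in old IEL, 201 in cd27cd28 and 150 in others. Old IEL was thus lowest and cd27cd28 highest, level with both SP arrays within spot error. The log2 difference of old from young was -0.04 in SP and -0.39 in IEL, but -0.47 and -0.14 after local background correction. That of old IEL from old SP was -1.05. This last difference became 0.029 after local background correction, the local background being 58.1% of the signal above the blank on old SP and 24.8% on old IEL.

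Among genes of the p53 and stress response, the paralogs Gadd45a and Gadd45b differed in level and in spread over the arrays. Gadd45a, a p53 target, had a signal of 62.2 in young SP, 71.0 in old SP, 69.8 in young IEL, 67.6 in old IEL, 58.8 in cd27cd28 and 67.9 in others. All neighbours in its order were within spot error, and its age differences were 0.19 in SP and -0.05 in IEL on the log2 scale. After local background correction these were -0.07 in SP and -0.61 in IEL. The local background made up 14.1% of the signal above the blank on young IEL and 69.6% on old IEL. Gadd45b, which is induced quickly by NF-kB and by T cell receptor and cytokine signals, had a signal of 313 in young SP, 1056 in old SP, 4077 in young IEL, 1975 in old IEL, 3345 in cd27cd28 and 2016 in others. It was the brightest of the 9 genes on every array, and all IEL arrays were above both SP arrays. Young IEL and cd27cd28 were within spot error of each other at the top, and others and old IEL below them. The log2 difference of old from young was 1.75 in SP and -1.05 in IEL. The local background made up 27.8% of the signal above the blank on young SP and 84.6% on old SP, and after its correction the age difference in SP had the opposite sign, -0.28. In IEL it was -2.60 after the correction, with a local background share of 85.1% in old IEL.

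Lmnb1, which encodes lamin B1 of the nuclear lamina, separated young IEL from every other array. Its signal was 21.7 in young SP, 27.7 in old SP, 294 in young IEL, 108 in old IEL, 86.5 in cd27cd28 and 115 in others. Among the 3 old IEL arrays the steps in order of level were within spot error, although cd27cd28 differed from others by -0.41 on the log2 scale. The 2 SP arrays were within spot error of each other, and no SP array reached any IEL array. On the log2 scale old IEL was 1.45 below young IEL (-1.45), old SP 0.35 above young SP, and IEL above SP by 3.76 in young and 1.96 in old mice. The local background of its spots was small, from below the blank to 21.4% of the signal above it, and after its correction the age difference in IEL was -1.32 and the site difference 2.22 in young and 0.77 in old mice, the last under 2-fold. The markers of dividing cells moved with it in part. They summed to 4093 in young SP, 4497 in old SP, 10465 in young IEL, 4633 in old IEL, 7494 in cd27cd28 and 9134 in others. The sum hides differences between these markers, as Top2a was 242 in young IEL and 140 in others, whereas Pcna was 1694 and 2093. The part of dividing cells in the Lmnb1 difference was not tested.

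Glb1, the gene of lysosomal beta-galactosidase, was lowest in old IEL. Its signal was 236 in young SP, 238 in old SP, 283 in young IEL, 141 in old IEL, 213 in cd27cd28 and 280.2 in others. The other 5 arrays followed each other in steps within spot error, although cd27cd28 was 0.41 below young IEL on the log2 scale. Old IEL lay 0.60 below the next array, cd27cd28, on the log2 scale. The median of all detected genes was 0.62 higher in cd27cd28 than in old IEL, so this step was no larger than that of the typical gene. Its probe is listed under a non-coding RefSeq record of the gene. The age difference was 0.01 in SP and -1.01 in IEL, just past 2-fold, and was -0.92 after quantile normalization and -0.88 after local background correction.

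Comparing old with young SP CD4+ T cells addresses age in a lymphoid organ. Of the 9 genes, 3 had a signal over 100 on 1 of the 2 arrays. Gadd45b was called higher and 0 genes lower, where 4.28% of all 4508 genes over 100 were called higher and 0.754% lower. The median log2 difference of the 9 genes was 0.02, and that of all detected genes 0.07. Cdkn1a was over 2-fold higher too but too dim to be called.

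Comparing old with young IEL CD4+ T cells addresses age in the gut epithelium. Gadd45b, Lmnb1 and Glb1, 3 of the 5 genes over 100, were called lower and 0 higher, where 3.84% of 4086 genes were called lower and 2.47% higher. The other 2 over 100, Cdkn1a and Cdkn2d, were also below 0. The median of the 9 genes was -0.39 against -0.09 for all detected genes. Cdkn2a alone was over 2-fold higher, and it was dim. The absence of a higher call thus covers only Cdkn1a and Cdkn2d among the CDK inhibitor genes of the set. Cdkn2b, an inhibitor gene outside the set, was under 100 at 10.1 in young and 60.4 in old IEL and is given below.

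The age differences of IEL and SP were then set against each other. The log2 age difference in IEL minus that in SP was over 2-fold lower for 4 of 5 genes over 100, namely Cdkn1a (-2.68), Gadd45b (-2.80), Lmnb1 (-1.80) and Glb1 (-1.02). It was over 2-fold higher for 0 of them, while of 4762 genes 10.2% were lower and 2.14% higher. For Cdkn1a it was 0.086 after local background correction, and for Gadd45b -2.32. The difference between the sites could not be tested.

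**Figure D2:**
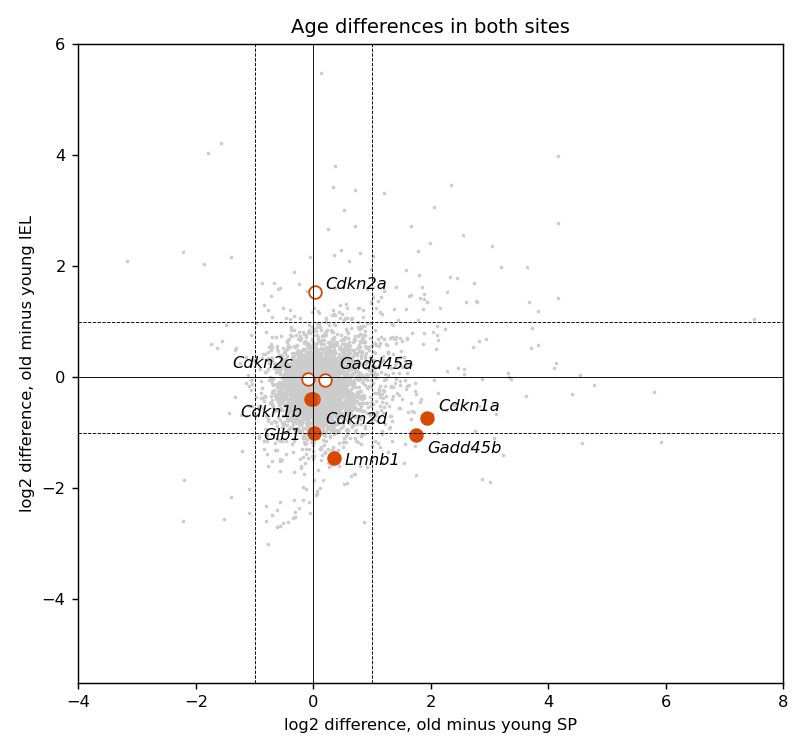
Log2 difference of old from young in SP (horizontal) and in IEL (vertical) for the 9 genes (orange) and all genes with a signal over 100 on 1 of the 4 arrays (grey dots). Filled orange points have a signal over 100 on 1 of the 4 arrays, open points do not, and dashed lines mark 2-fold. Cdkn1a (1.94 and -0.74) and Gadd45b (1.75 and -1.05) lie to the lower right, higher with age in SP and lower in IEL; the open point of Cdkn1b lies under that of Cdkn2d.

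IEL were also compared with SP within each age. In young mice, Cdkn1a, Gadd45b and Lmnb1, 3 of 5 genes over 100, were called higher in IEL than in SP and 0 lower, where 8.02% of 4475 genes were higher and 9.65% lower. In old mice, Cdkn1a and Lmnb1 were called higher and Cdkn2d lower, out of 5 genes over 100. The shares of 4527 genes were 4.64% higher and 12.7% lower, with a median of -0.46 for all detected genes, so Cdkn2d (-1.05) was lower than the typical gene by less than its value says. Over all arrays, the 4 IEL values lay wholly above the 2 SP values for 3 of the 6 genes with a signal over 100 (Cdkn1a, Gadd45b and Lmnb1), and wholly below for 0. Of 5073 genes, 15.8% were wholly above and 20.1% wholly below.

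The 2 further old IEL fractions gave further values for aged IEL. Between cd27cd28 and others, 0 of 6 genes over 100 were called, and of 4707 genes 0.467% were higher and 2.68% lower in cd27cd28. The largest difference was that of Gadd45b, 0.73 higher in cd27cd28 on the log2 scale, followed by Cdkn2a (0.57, dim) and Cdkn1a (-0.48). Against the old IEL array, the typical gene was higher on both, with a median over all detected genes of 0.62 for cd27cd28 and 0.54 for others, and the genes are read relative to that. Cdkn2d was called higher in cd27cd28 than in old IEL (1.10), the only one of 6 genes called, while 9.66% of 4544 genes were higher and 1.28% lower. After local background correction the Cdkn2d difference was 0.20. Cdkn1a (-0.88) was the farthest below the median of that comparison. Between others and old IEL 0 of 6 genes were called, with 3.22% of 4501 genes higher and 0.133% lower, and Glb1 (0.99) came nearest to 2-fold.

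Set against young IEL, all 3 old IEL arrays placed Lmnb1 over 2-fold lower, with log2 differences of -1.45 in old IEL, -1.77 in cd27cd28 and -1.36 in others. It was the only one of 6 genes over 100 called on all 3 arrays, where 0.44% of 4778 genes were lower on all 3 and 2.22% higher. Lmnb1 was lower although the median of all genes was -0.09 for old IEL, 0.54 for cd27cd28 and 0.44 for others. Cdkn1a was below young IEL on each array as well, by -0.74, -1.62 and -1.14 in the same order. Gadd45b was past 2-fold in old IEL (-1.05) and others (-1.02) but not in cd27cd28 (-0.29). Glb1 was past it in old IEL alone, being -0.41 in cd27cd28 and -0.01 in others. The dim Cdkn2a was higher on all 3, by 1.53, 1.82 and 1.26. The medians of all genes bear on these genes too. In cd27cd28 and others, each of them lay lower against the typical gene than its value says. Glb1 in cd27cd28 (-0.41), for one, stood beside a median of 0.54, so its position below the typical gene was not confined to old IEL. The 3 arrays share 1 young control, so they are not independent of each other.

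**Figure D3:**
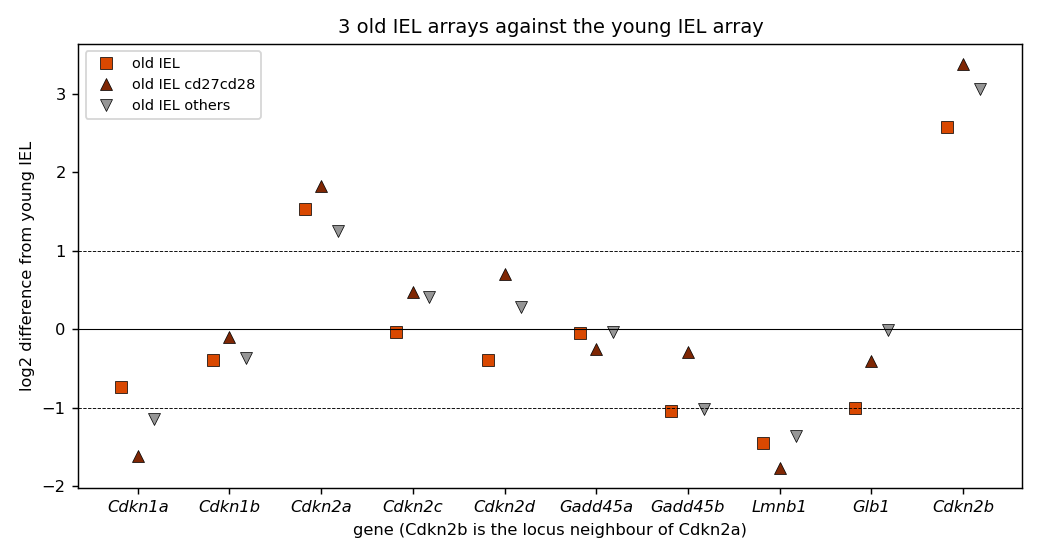
Log2 difference from the young IEL array of the old IEL, cd27cd28 and others arrays, 1 point per array, for the 9 genes and Cdkn2b; dashed lines mark 2-fold. Lmnb1 lies below -1 on all 3 arrays (-1.45, -1.77 and -1.36), and Cdkn2a and Cdkn2b, both dim in young IEL, lie above 1 on all 3.

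Genes around these inhibitors were read from lists of pathway members. Of the other inhibitors, 12 genes with a probe, 0 of the 6 over 100 were called in either direction in IEL, and Gadd45g, the remaining GADD45 gene, was called higher in old SP, from 229 to 495 (1.11). Of all genes, 2.47% were called higher and 3.84% lower in IEL, and 4.28% higher in SP. Gadd45g was lower in old than in young IEL (-0.72), and so had the same signs as Gadd45b at both sites. Btg3, an antiproliferative gene, was called higher in IEL than in SP in both ages, with a signal of 260.2 in young SP, 417 in old SP, 735 in young IEL and 1149 in old IEL. Rbl1, the gene of the pocket protein p107, was called lower in old IEL than in old SP (188 and 413). Cdkn2b, which encodes p15 and lies beside Cdkn2a, was picked out after its values were seen. Its signal was 4.67 in young SP, 38.9 in old SP, 10.1 in young IEL, 60.4 in old IEL, 106 in cd27cd28 and 85.0 in others. Of the inhibitors detected on all 4 arrays of young and old SP and IEL, it was the only one over 2-fold higher with age at both sites, by 3.06 in SP and 2.57 in IEL on the log2 scale, and it was under 100 on those arrays.

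Genes of the G1 step, some of them targets of the inhibitors, were lower in old IEL in part. Among the G1 cyclins and CDKs, the median was -0.86 in IEL, with 11 of 13 detected genes below 0, against -0.03 in SP. Most of these genes were dim, and over those with a signal over 100 the median was -0.40 in IEL and 0.37 in SP. The medians of all detected genes were -0.09 in IEL and 0.07 in SP. Of the 4 listed genes over 100 in IEL, 1 was called lower, beside 3.84% of all genes. It was Cks1b, the gene of a subunit of the ligase that degrades p27, with a signal of 513 in young and 236 in old IEL. Cks1b was 707 in others and 333 in cd27cd28. Cdk4, the target of the INK4 proteins, was 117 in young and 73.0 in old IEL (-0.68). Ccnd2, the gene of cyclin D2, was 2837 and 2918 in young and old IEL, but 7571 in cd27cd28, where it was called higher than in old IEL.

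Genes of dividing cells had the largest list median with age in IEL among the pathway lists. Of 16 over 100, 12 were called lower in old than in young IEL and 0 higher, beside 3.84% and 2.47% of all genes, with a median of -1.77 over 18 detected genes, all of them below 0. The furthest were Tk1, a thymidine kinase gene of S phase, from 201 to 33.0, the mitotic cyclin gene Ccnb2, from 213 to 35.5, and the cyclin A2 gene Ccna2, from 422 to 71.6. In SP 0 of 6 were called with age and the median was 0.11. In young mice 13 of 16 were called higher in IEL than in SP, beside 8.02% of all genes. Against old IEL, 9 of 15 were called higher in others, beside 3.22% of all genes, and 5 of 11 in cd27cd28, beside 9.66%. The list medians were 1.27 and 0.86, where the medians of all detected genes were 0.54 and 0.62.

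The p53 and DNA damage lists differed from each other. Of the p53 regulators and targets over 100, 1 of 6 was called higher in old IEL, Polk, a translesion polymerase gene (153 to 306), with 0 lower and a list median of 0.03. Of all genes, 2.47% were called higher and 3.84% lower there. In SP 1 of 8 genes of this list was called higher, the proapoptotic gene Pmaip1 (19.2 to 127), beside 4.28% of all genes. Mdm2, the gene of the ligase that degrades p53, was 224 in young and 191 in old IEL, and 217 and 232 in young and old SP. Of the DNA damage checkpoint genes, 11 of 11 were below 0 in IEL (median -0.82, against -0.09 for all detected genes). Of 4 over 100, the kinase genes Atr (191 to 91.6) and Chek1 (157 to 52.1) were called lower and 0 higher, beside 3.84% and 2.47% of all genes. In SP 0 of 3 were called, and the median was 0.12.

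Genes over 100 that share a compartment with Lmnb1 and Glb1 were not called with age, like most genes over 100. Of all genes, 2.47% were called higher and 3.84% lower in IEL, and 4.28% and 0.754% in SP. Of the other lamina genes 0 of 4 over 100 were called with age in IEL (median 0.13) and 0 of 3 in SP (median -0.02). Sun2, of the bridge between lamina and cytoskeleton, was 2119 in young and 2804 in old IEL, and Banf1, which tethers chromatin to the lamina, 1757 and 1392. Emd, the gene of emerin, was called higher in IEL than in SP in both ages. Its signal was 48.3 in young SP, 51.4 in old SP, 110 in young IEL and 121 in old IEL. Of the lysosomal genes 0 of 4 over 100 were called with age at either site, with medians of -0.01 in IEL and 0.19 in SP. Ctsa, the gene of cathepsin A, which protects beta-galactosidase in the lysosome, was 110 in young and 132 in old IEL, whereas Glb1 was 283 and 141. The dim Lamp2, the gene of a lysosomal membrane protein, was 47.8 in young and 19.3 in old IEL (-1.31), and so lower by more than Glb1.

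Genes of the secretory list and of the regulators upstream of the INK4 and KIP genes completed the picture. Of the secretory genes, 2 of 2 over 100 were called higher in old SP, Ifng (169 to 2379) and Tnf (53.6 to 149), beside 4.28% of all genes. In old IEL 0 of 1 was called higher, beside 2.47% of all genes. That gene was Ifng, at 6281 in young and 9447 in old IEL, and so above its SP signal at both ages. Klf4, a transcription factor gene linked to T cell quiescence, was called higher with age in SP (423 to 1472) and in IEL (394 to 1406). Ezh2, the histone methyltransferase gene of the Polycomb complex that represses the Cdkn2a locus, was called lower in old IEL (599 to 246) and was 303 and 265 in young and old SP. These were the only calls with age among 6 upstream genes over 100 in SP and 5 in IEL. Of all genes, 4.28% were called higher in SP, and 2.47% higher and 3.84% lower in IEL.

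**Figure D4:**
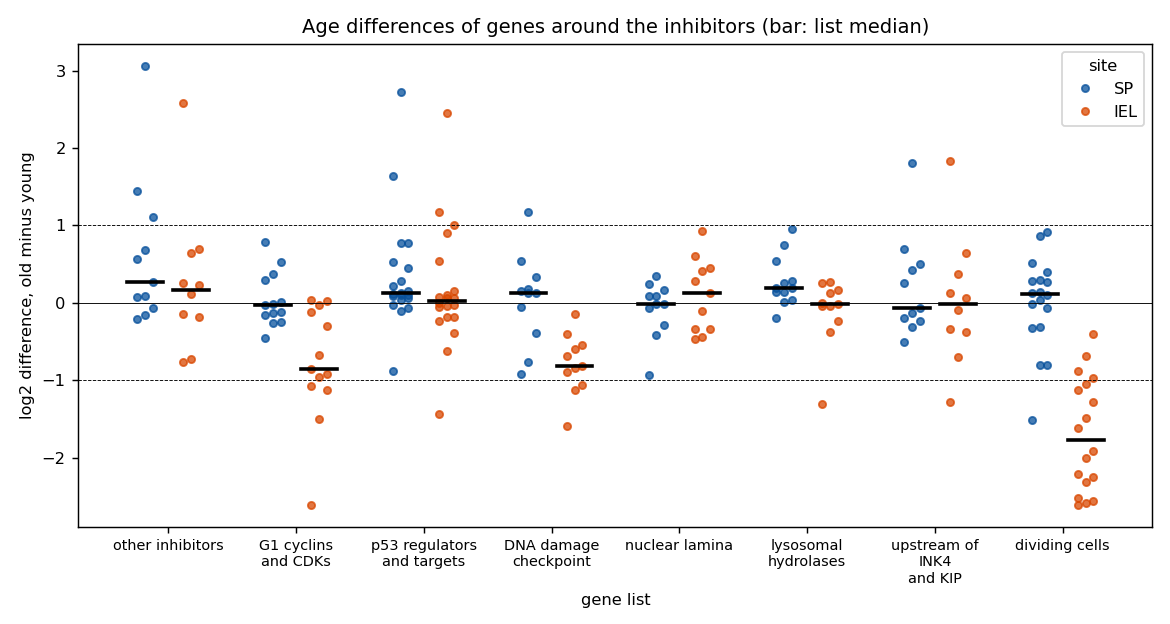
Log2 difference of old from young in SP (blue) and IEL (orange) for each detected gene of 8 lists, 1 point per gene, with the list median as a bar and dashed lines at 2-fold; dim genes are included. Dividing-cell genes lie below 0 throughout in IEL (median -1.77) and around 0 in SP (0.11), and the lamina and lysosomal lists centre near 0 at both sites.

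The genes with the most similar profile over the 6 arrays were looked up for each gene whose log2 signal ranged over more than 1, as the smallest root mean square distance between centred log2 signals among 5073 genes. Nearest to Cdkn1a were Lilr4b (0.42), the glycolytic gene Hk2 (0.47) and Ahr (0.49), the gene of the aryl hydrocarbon receptor, whose signal was 30.7 in young SP and 1194 in young IEL. Gadd45b was nearest to Themis2 (0.29), Plk3 (0.30) and Irf4 (0.31), a factor induced by T cell receptor signals. Lmnb1 was nearest to Il18rap (0.37), Slc43a3 (0.37) and Got1 (0.38), none of them from the list of dividing-cell genes. Cdkn2d and Glb1, whose signals ranged less, had closer neighbours, which were Ccdc71 (0.04), Gm4987 (0.07) and Tm7sf2 (0.07) for Cdkn2d, and Psma4 (0.09), Ran (0.11) and Dtx3l (0.12) for Glb1. Cdkn2a was nearest to Chst12 (0.18), Cst3 (0.20) and Med29 (0.22), all brighter than it, Chst12 at 359 in young and 805 in old IEL. With 6 arrays, such distances are a description only.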

How the data were processed

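RNA of sorted CD4+ T cells was hybridised to Toray 3D-Gene mouse oligo 24k arrays with 1 dye (Cy5). The deposited scanner files give intensity of each spot median and its local background, with no background subtracted, and the authors' deposited table holds globally normalised intensity with a median of 25 per array. The scanner intensities were used. The mean of the 384 blank spots, trimmed by 5% at each end, was subtracted, probes more than 2 SD of the blank spots above that mean counted as detected, and each array was scaled to a median of 25 over detected probes. On each array these values correlated with the authors' table with a Pearson r of 1.000 to 3 decimals, and 18 to 54 probes were detected in 1 source only. A single symbol named 20690 probes, 2783 had none, and several probes of 1 gene were averaged as log2.

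There were 8 comparisons between arrays, over genes detected on each array compared, with calls at the 2-fold change and the signal of 100 that the methods of the study state. The comparison of all 3 old IEL arrays with young IEL was added after the data were seen. With 1 array per group no test was made, so the number of arrays limits the precision. The genes and the 18 lists were chosen with earlier results of these data known. From each list up to 3 genes with the largest difference in each age comparison and a signal over 100 were eligible to be named, with called genes of the inhibitor, G1 and lamina lists, and the 3 nearest genes. Cdkn2b, Lamp2, Lyz2 and Krt8 were named outside this rule, after their values were seen.

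The alternatives were quantile normalization, 75th percentile scaling, normexp (offset 50), 16 added before log2, the authors' table, the brightest probe per gene, undetected probes at the lowest detected signal, no signal minimum or one of 200, and a 3-fold threshold. The steps of the call were checked on simulated arrays with known changes, which checks the code only and gives no error rate for these arrays. Python 3.11.15, numpy 2.4.6, pandas 2.3.3, matplotlib 3.10.9, R 4.3.3 and limma 3.58.1 were used. Promoters are from RefSeq (GRCm38.p6). The array files name no genome build.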

Additional observations from a re-analysis of the deposited data

Results flagged for a closer look

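For 5 of the 9 genes the log2 age difference had opposite signs in IEL and SP. How many of all genes had opposite signs was not counted. The difference between the sites was not tested, since each group had 1 array. The age difference in IEL minus that in SP was -2.679 for Cdkn1a, -2.798 for Gadd45b, -1.804 for Lmnb1, -1.022 for Glb1 and -0.237 for Gadd45a. The SP side was within spot error for Lmnb1 (0.35) and Glb1 (0.01), and both sides for Gadd45a (0.19 in SP and -0.05 in IEL). After local background correction the signs in SP and IEL stayed for Lmnb1 (0.14 and -1.32). Both values were below 0 for Gadd45b (-0.28 and -2.60), Glb1 (-0.05 and -0.88) and Gadd45a (-0.07 and -0.61). Both signs changed for Cdkn1a (-0.05 and 0.04), and Cdkn2c took opposite signs (0.10 and -0.67).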

How the results depend on the processing

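No paired analysis was possible because each group had 1 array. Of 72 differences of the 9 genes, 15 were called. The authors' table, the brightest probe and a floor for undetected probes each kept 15 calls, quantile normalization 13, 75th percentile scaling 12, 16 added before log2 11 and normexp 6, with 23 signs changed, 3 of them called. Under normexp the log2 value was reversed for Gadd45b with age in SP (-0.28), Aurkb and Cst3 with age in IEL (0.30 and -0.59), Cdkn2d in old IEL against old SP (0.029) and Cdkn1a in the difference of age differences (0.086); the cause was not tested. Called genes higher in old SP numbered 1, but 0 under normexp and 2 with no signal minimum. With no minimum 1 gene was higher, against 0, in old IEL, in the difference of age differences and on all 3 old IEL arrays. At 3-fold 0 were lower in old IEL, against 3. In old IEL against old SP, higher calls went from 2 to 0 under normexp and a minimum of 200. The 1 lower call went to 0 under both, 75th percentile scaling, 16 added and 3-fold. The 1 call in cd27cd28 against old IEL went to 0 under normexp, 16 added and 3-fold. Lower calls in the difference of age differences went from 4 to 2 under normexp. Those on all 3 old IEL arrays went from 1 to 2 under normexp and 0 at 3-fold.

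Over all genes, normexp changed counts by more than 1.5 times in 6 comparisons. Calls went from 227 to 482 (SP age), 258 to 585 (IEL age), 787 to 487 (old IEL against old SP), 148 to 266 (cd27cd28 against others), 151 to 353 (others against old IEL) and 587 to 919 (difference of age differences). Quantile normalization took cd27cd28 against old IEL from 497 to 268 calls, and from 88.3% higher to 74.3%. In others against old IEL 16 added gave 94. No minimum gave 658 to 2639 calls and 3-fold 42 to 364 over the comparisons, and a minimum of 200 gave 82 to 534. Under normexp the share of calls that were higher went from 85.0% to 41.9% for SP age, 39.2% to 22.9% for IEL age, 45.4% to 74.7% for IEL against SP in young and 26.7% to 49.3% in old mice, 14.9% to 64.7% for cd27cd28 against others, 96.0% to 75.1% for others against old IEL and 17.4% to 30.1% for the difference of age differences.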
